A study of Mus musculus with 48 samples.

Results

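The genes described here are 73 nuclear genes of oxidative phosphorylation. Most encode subunits of respiratory complexes I, III and IV or of ATP synthase (complex V), and 7 encode assembly factors of complex I. Cox7a2l is a supercomplex assembly factor. Atp5s and Atp5sl, of the coupling factor family, are grouped as associated with complex V rather than as its subunits. They were taken by name, as genes whose symbols begin with Nduf, Uqcr, Atp5, Cox4, Cox5, Cox6, Cox7 or Cox8, with pseudogenes left out, and with at least 10 reads in at least 6 libraries. Of 88 names that match without pseudogenes, 73 passed that minimum and 15 did not, out of 11479 genes that passed it and 48526 in the table. Cox7c lay just inside the minimum, with 10 or more reads in 6 libraries, and Uqcrb just outside it, with 4. The other 14 left out were Atp5g2, Atp5l, Cox4i2, Cox6a2, Cox6b2, Cox7a1, Cox7b2, Cox8b, Cox8c, Ndufa4l2, Ndufa5, Ndufb4, Ndufc1 and Ndufs5. By role, 32 of the 73 are subunits of complex I, 7 are its assembly factors, 7 belong to complex III, 12 to complex IV and 15 to complex V. Ndufa4, first named as part of complex I, is counted with complex IV, where its protein is found. Cox7a2l is counted with complex IV as well, and Atp5s and Atp5sl with complex V.

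The RNA came from hippocampal microglia of C57BL/6 mice, the resident macrophages of the brain, sorted by flow cytometry on Cx3cr1, the fractalkine receptor that microglia carry. Mice received whole brain irradiation as a single dose of 8 Gy on postnatal day 21, or a sham procedure whose content is not given in the sources used here, and were killed 2 h, 6 h, 1 day or 1 week later. Each of the 8 groups (sham, SH, and irradiated, IR, at each time) held 6 animals with 1 library each, 48 libraries in all, and every time had its own sham animals. The sex of the mice is not given in the sources used here, and all groups share the strain, the tissue, the enzymatic digestion and the sort.

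Oxidative phosphorylation is the last stage of aerobic ATP production. Complex I takes electrons from NADH, complex III passes them from ubiquinol to cytochrome c, complex IV hands them to oxygen, and the protons these complexes pump across the inner mitochondrial membrane drive ATP synthase. Some subunits of complexes I, III and IV and of ATP synthase are encoded by mitochondrial DNA, while the nucleus encodes all other subunits, many of them small accessory proteins from short transcripts. Resting microglia are known to rely on oxidative phosphorylation and to shift toward glycolysis when activated by inflammatory stimuli.

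Levels are in RPM, reads of a gene per 1000000 reads on genes in the same library, rebuilt from the deposited RPKM. Changes are irradiated minus sham on the log2(RPM + 1) scale with their standard error after ±, which understates changes of genes near 1 RPM. A gene is called when limma gives an adjusted p under 0.05 after Benjamini-Hochberg adjustment over all 11479 genes (two-sided, n = 6 against 6). Depth was between 175382 and 3856777 reads on genes, and 3 libraries had under 1000000: sham 1 day library 6 (175382), irradiated 2 h library 2 (395761) and sham 6 h library 4 (731819). In bulk RNA, fewer cells of a type and less RNA per cell cannot be told apart, and a share of reads also falls when other genes rise.

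Markers of microglia were present throughout. All 11 microglial markers passed the read minimum, and their summed level was between 23365 and 47760 RPM in the 48 libraries. All 10 neuronal and all 7 lymphocyte markers had a median of 0, although 1 irradiated 1 week library held 365 RPM of neuronal markers. Markers of other cell types were present at low levels. A median over 1 RPM was found for 4 of 9 oligodendrocyte markers (73.3 to 336 RPM in sum, with Pdgfra and Olig2 at a median of 0), 4 of 7 astrocyte markers (5.46 to 77.3 RPM, Aldh1l1 at 0), 6 of 10 endothelial and mural markers (20.02 to 197 RPM), all 6 perivascular macrophage markers (36.5 to 252 RPM), all 5 erythrocyte markers (0 to 193 RPM) and 2 of 8 monocyte and neutrophil markers (1.95 to 91.9 RPM). The 6 h sham libraries did not form 1 group. On the first principal component of all genes (17.5% of the variance) sham 6 h libraries 1 to 4 lay at -56.3 to -48.9, among the 2 h libraries, while sham 6 h libraries 5 and 6 lay at 14.7 and 17.5, beside the irradiated 6 h libraries at 19.8 to 30.5. For this reason the 6 h changes below are shown against the whole sham group and again against libraries 5 and 6.

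Microglia used mainly 1 isoform of each subunit that has several. Per kilobase of exon, so that genes can be compared, pooled levels were 326 RPM for Cox4i1 against 1.29 for Cox4i2, the isoform known from lung. Cox6a1, the broadly expressed isoform, stood at 25.9 RPM per kilobase against 1.15 for Cox6a2, the isoform of heart and skeletal muscle. Cox6b1 reached 41.4 RPM per kilobase against 0.313 for Cox6b2, which is known from testis. The same order held between Cox7a2 (19.0 RPM per kilobase) and the muscle isoform Cox7a1 (0.509), and between Cox8a (20.6) and the muscle isoform Cox8b (0.261). Cox7b2 and Cox8c had no read in any of the 48 libraries, against 8.34 RPM per kilobase for Cox7b. Ndufa4 was at 30.1 RPM per kilobase and its paralog Ndufa4l2, known as a hypoxia-induced gene, at 0.0771. The same mature c subunit of the ATP synthase ring is encoded by 3 genes, and Atp5g3 carried most of these reads, at 26.4 RPM per kilobase against 0.632 for Atp5g1 and 0.543 for Atp5g2. Apart from Atp5g1, each lower isoform fell under the read minimum, so its response to irradiation was not tested.

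**Figure D1:**
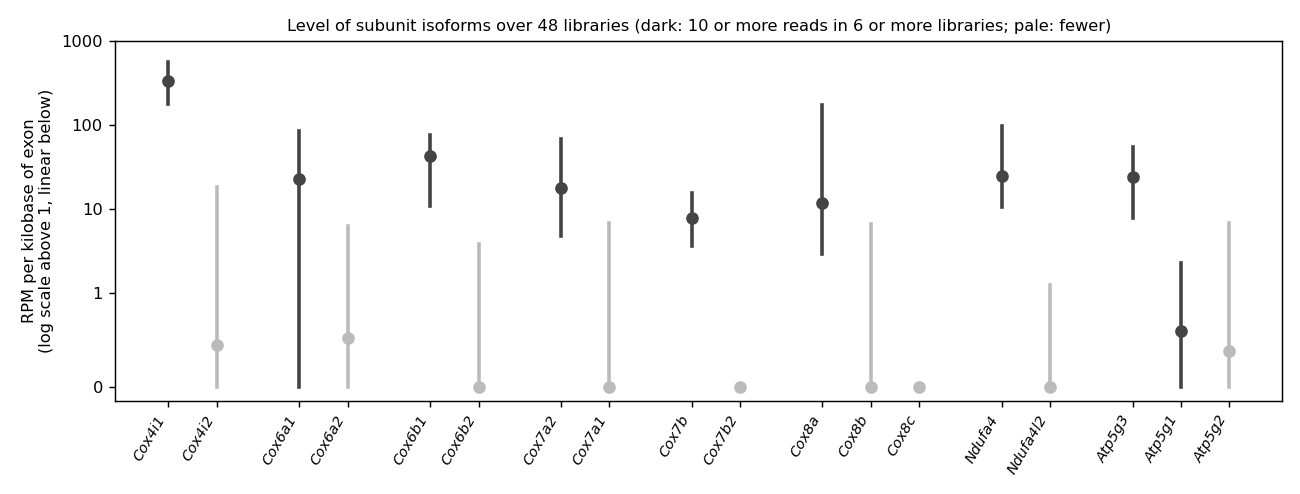
Levels of subunit isoforms in RPM per kilobase of exon (vertical axis, logarithmic above 1 and linear below), as the median (point) and range (bar) over all 48 libraries, dark for genes over the read minimum and pale for others. In each family 1 gene lies far above the others, for example Cox4i1 with a median of 334 against 0.447 for Cox4i2.

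At 2 h after irradiation, 3 of the 73 genes had risen and none had fallen, against 5.27% of all genes tested called higher and 5.22% called lower. At an unadjusted p under 0.05 limma had 8 higher and 1 lower, and limma-voom, a related test on the recovered reads, called 2 higher and none lower. The share called higher, 4.11%, was close to that of all genes. The median change of the 73 genes was 0.08 on the log2 scale, beside -0.03 for all genes tested. The 3 were an accessory subunit of the membrane arm of complex I (Ndufa13), a subunit of ATP synthase (Atp5k) and a subunit of complex IV (Cox5b).

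Ndufa13, also known as GRIM-19 and named for its part in cell death induced by interferon and retinoic acid, lies on GRCm38 chromosome 8 from 69894180 to 69902558 (ENSMUSG00000036199). Its lowest, median and highest levels were 11.96, 14.4 and 46.4 RPM in sham and 18.02, 77.8 and 215 RPM in irradiated libraries. The irradiated values were widely spread and the groups overlapped at their edges, 1 sham library standing well above the other 5. The change was 2.01 ± 0.49 (limma adjusted p = 0.00388). At 6 h the change of Ndufa13 was 0.17 ± 0.49 (limma adjusted p = 0.838), from a mean of 51.5 RPM in sham to 53.1 RPM in irradiated libraries. The annotation places 375 of its exon bases under exons of Tssk6 on the other strand, and the sources used here do not say whether counting used strand.

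Atp5k, which encodes the small e subunit that helps ATP synthase form dimers, was close to the counting limit. In sham it had 0 reads in most libraries, with a highest level of 0.689 RPM, and irradiated libraries held 0.470 to 2.72 RPM (median 2.17). The change was 1.22 ± 0.39 (limma adjusted p = 0.0339), and it lost its call when any 1 of 8 libraries was left out (sham 3, 4, 5 or 6, or irradiated 1, 2, 3 or 4). Cox5b, which encodes a zinc-binding subunit of complex IV, went from 3.41, 7.44 and 13.2 RPM in sham to 10.4, 14.1 and 24.3 RPM in irradiated libraries. The groups overlapped only between the lower irradiated and the highest sham values. Its change was 0.92 ± 0.31 (limma adjusted p = 0.0428), lost without any 1 of 6 libraries (sham 2, 3 or 5, or irradiated 2, 4 or 5). Without irradiated 2 h library 4 the count of called genes at 2 h was 1, and without the shallowest library of the series, sham 1 day library 6, it was 5.

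No gene of the 73 had groups free of overlap at 2 h, beside 2.95% of all genes with irradiated libraries all higher and 2.24% with all lower. In no other complex I, III, IV or V subunit did the change at 2 h pass the threshold. Ndufb6, an accessory subunit of the membrane arm, came nearest with 1.27 ± 0.44 (limma adjusted p = 0.0511), followed by Cox4i1 with 0.44 ± 0.16 (limma adjusted p = 0.0616). The 7 nuclear core subunits of complex I, which carry its flavin and iron-sulphur centres and the ubiquinone site, had changes between -0.38 (Ndufs3) and -0.02 (Ndufs8). Among complex III genes, Uqcrh, the hinge protein and the one with most reads among them, changed by -0.04 ± 0.35. None of the 7 assembly factors was called by limma or limma-voom (1 lower at an unadjusted p under 0.05). Ndufaf7, which methylates a core subunit, was that 1 and had the highest mean among them and a change of -0.55 ± 0.23 (limma adjusted p = 0.123).

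**Figure D2:**
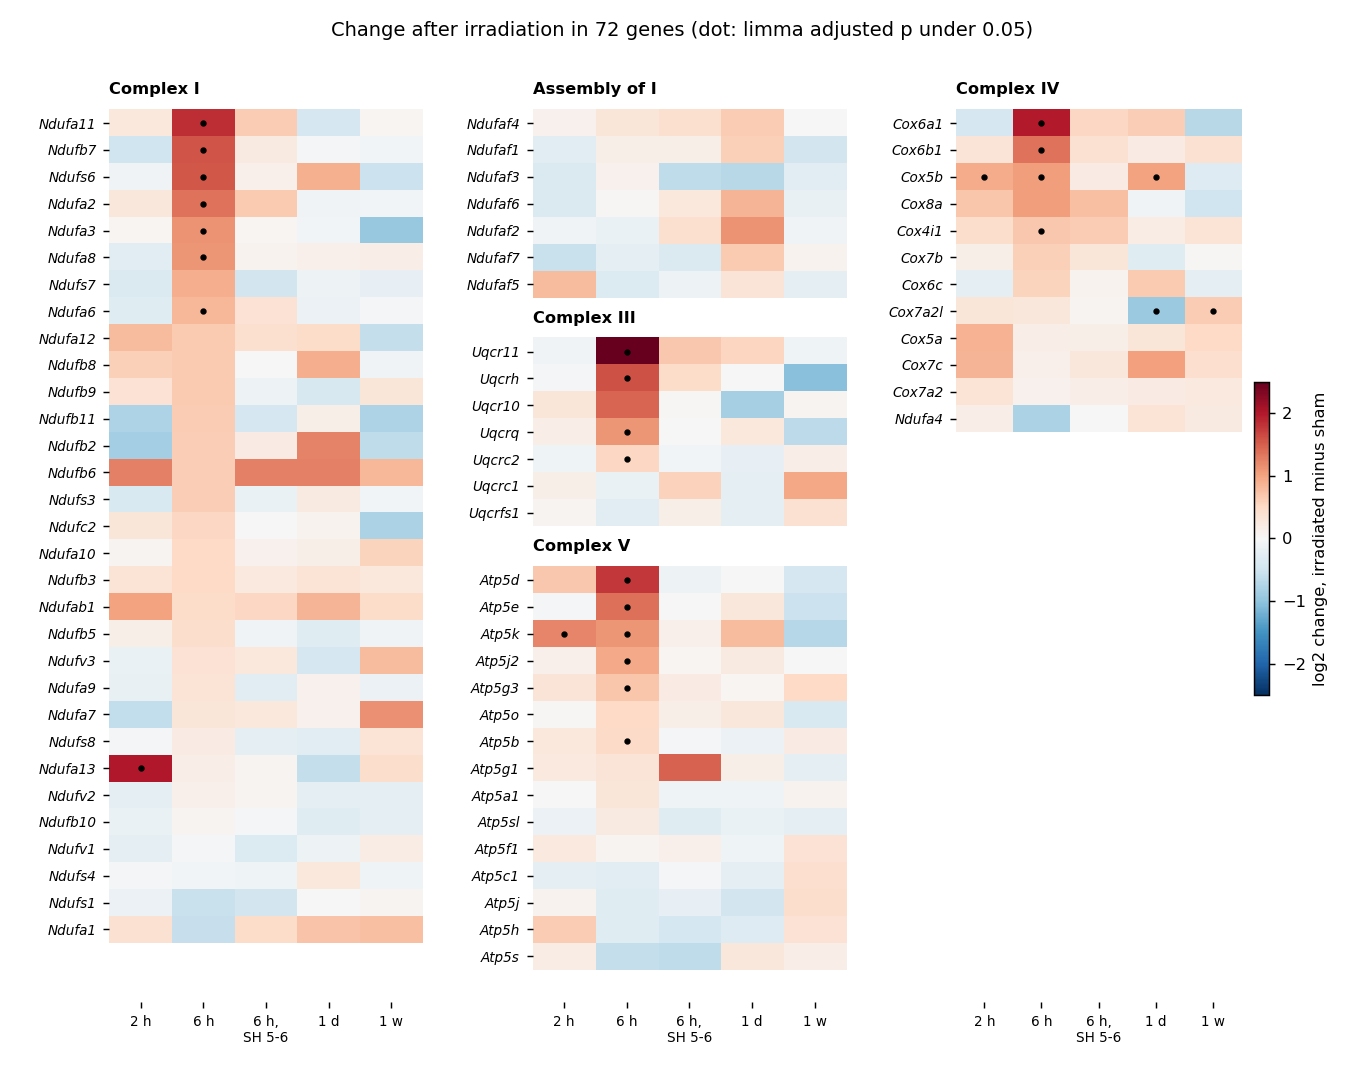
Change of 72 of the 73 genes (rows, by complex) on the log2(RPM + 1) scale, irradiated minus sham, at 2 h, 6 h, 6 h against sham libraries 5 and 6 alone, 1 day and 1 week (columns), where red is higher and blue is lower in irradiated libraries and a dot marks a limma adjusted p under 0.05. Dots crowd in the 6 h column, where 21 genes were called higher, and are absent from the column that uses sham libraries 5 and 6.

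At 6 h, 21 of the 73 genes were called higher in irradiated microglia and none lower, and they came from all 4 complexes. That is 28.8% of the 73, where 13.6% of all genes tested were called higher and 9.52% lower. Limma had 2 of the 73 lower at an unadjusted p under 0.05, and limma-voom called 21 higher and 1 lower, Ndufs1. The median change of the 73 was 0.47, beside 0.08 for all genes, and 59 of 73 changes lay above 0. Summed over the 73 genes, irradiated libraries held 3794 to 4318 RPM (median 3953). Sham 6 h libraries 1 to 4 held 2544 to 3184 RPM, and libraries 5 and 6 held 3605 and 3613 RPM. The 6 irradiated sums lay above all 6 sham sums, with a small gap to libraries 5 and 6 and a large one to the other 4.

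The count depended on which sham libraries served as control. Against sham libraries 5 and 6 alone none of the 73 genes was called in either direction (1.72% of all genes were called higher and 0.645% lower), and the median change was 0.09. At an unadjusted p under 0.05 that comparison had 2 of the 73 higher and none lower. Against sham libraries 1 to 4 alone, 30 were called higher and 2 lower (19.3% and 13.5% of all genes), with a median of 0.66. Among the 21 called with all 6 sham libraries, both libraries 5 and 6 lay above libraries 1 to 4 in 19 genes, every irradiated library lay above libraries 1 to 4 in all 21, and every irradiated library also lay above libraries 5 and 6 in 2, Uqcr11 and Cox4i1. Other measures moved with the same split. The mitochondrial ribosomal RNA mt-Rnr2 took 5.52% to 6.81% of reads in sham libraries 1 to 4, 2.79% to 3.02% in libraries 5 and 6 and 2.12% to 3.98% in irradiated libraries. Cytosolic ribosomal protein genes summed to 4219 to 5493 RPM, 6768 to 6832 RPM and 6802 to 10270 RPM in the same order. Astrocyte markers (7 listed, 4 with a median over 1 RPM) summed to 11.8 to 24.6, 36.1 to 39.5 and 34.2 to 71.0 RPM, and the 9 oligodendrocyte markers to 94.3 to 140, 191 to 217 and 166 to 213 RPM. Microglial markers were lower in irradiated than in sham 6 h libraries (31763 to 35298 against 42474 to 45602 RPM in sum), with 7 of 11 called lower. The sum of perivascular macrophage markers was lower as well, at 36.5 to 77.6 RPM in irradiated against 107 to 172 RPM in sham libraries. There, sham libraries 5 and 6 lay within the range of libraries 1 to 4. By gene these markers did not move together. Of 5 tested, 1 was called lower (-1.77), while 4 had changes above 0, none called, and the median change was 0.31. The part of these measures in the result was not tested.

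The count also moved with a correction for base composition and length. The exons of the 73 genes had a median length of 1801 bases, beside 4358 for all genes tested, and their GC content was 50%, beside 49.1%. With the trend of each library on GC content and exon length removed, 6 of the 73 were called higher at 6 h and none lower, beside 7.8% and 8.74% of all genes, and the median change was 0.17. These 6 were Ndufb7, Uqcr11, Uqcrh, Cox6b1, Atp5e and Atp5j2.

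**Figure D3:**
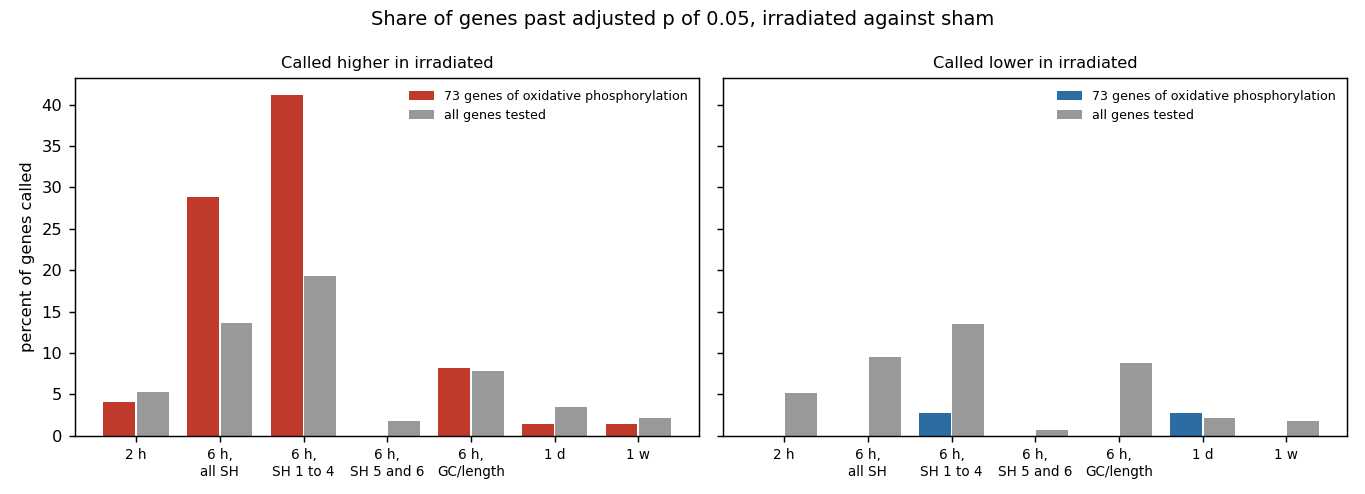
Percent of the 73 genes (coloured bars) and of all 11479 genes tested (grey bars) called higher (left) or lower (right) in irradiated libraries at each time, with the 6 h comparison repeated against sham libraries 1 to 4, against sham libraries 5 and 6, and with the GC and length trend removed. The 28.8% at 6 h against 13.6% for all genes became 0% against 1.72% with sham libraries 5 and 6.

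Against the whole sham group complex III held the largest changes at 6 h, with 4 of its 7 genes called and a median change of 1.10 (5 of 7 above 0). With sham libraries 5 and 6 alone no gene was called. The medians were then 0.25 for complex IV, 0.08 for complex I, -0.05 for complex V and 0.14 for complex III itself. Uqcr11, its smallest subunit (ENSMUSG00000020163, chromosome 10, 80402997 to 80406830), had levels of 0 to 8.32 RPM in sham libraries 1 to 4, of 23.0 and 30.4 RPM in libraries 5 and 6, and of 40.0, 41.7 and 49.6 RPM (lowest, median, highest) in irradiated libraries. All irradiated libraries lay above all sham libraries, in a narrow band. The change was 2.64 ± 0.45 (limma adjusted p = 1.5e-05), and 0.68 with sham libraries 5 and 6 alone (limma adjusted p = 0.712). Uqcrh, the acidic hinge protein between cytochrome c1 and cytochrome c, ran from 54.7 to 101 RPM in sham libraries 1 to 4, stood at 219 and 238 RPM in libraries 5 and 6, and ran from 225 to 553 RPM (median 307) in irradiated libraries. Only the lowest irradiated value fell within the range of sham. Its change was 1.60 ± 0.35 (limma adjusted p = 0.000664), and 0.46 with libraries 5 and 6. Uqcrq rose by 1.10 ± 0.35 and Uqcrc2 by 0.51 ± 0.20 (limma adjusted p = 0.0162 and 0.0492), the call of Uqcrc2 being lost in 35 of 48 fits that left out 1 library. With libraries 5 and 6 these were 0.02 and -0.06. Uqcrc2 and Uqcrc1 are the core proteins of the matrix side, and Uqcrfs1 is the Rieske iron-sulphur protein that takes the electron from ubiquinol. Uqcrc1 (-0.16 ± 0.40) and Uqcrfs1 (-0.26 ± 0.31) were not called.

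In complex IV, 4 of 12 genes were called higher. Cox4i1, the subunit that carries regulatory sites for ATP (ENSMUSG00000031818, chromosome 8, 120668222 to 120674207), had 287, 436 and 562 RPM as its lowest, median and highest levels in sham and 568, 661 and 869 RPM in irradiated libraries. The groups did not overlap, and sham libraries 5 and 6 (397 and 474 RPM) lay inside the range of libraries 1 to 4. The change was 0.68 ± 0.16 (limma adjusted p = 0.00111), and 0.63 with sham libraries 5 and 6 alone (limma adjusted p = 0.126), where it was not called. With the GC and length trend removed the change was -0.10 (limma adjusted p = 0.743). Its exons share 154 bases with those of Emc8 on the other strand. Groups that did not overlap in the higher direction were found for 5.32% of all genes at 6 h and for 2 of the 73, Cox4i1 and Uqcr11, and in the lower direction for 3.23% and none of the 73.

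Cox6b1, which lies at the contact of the complex IV dimer, went from 9.57 to 12.6 RPM in sham libraries 1 to 4 and 25.3 and 37.5 RPM in libraries 5 and 6 to 32.8 to 54.0 RPM (median 41.7) in irradiated libraries. Only the higher of libraries 5 and 6 reached into the irradiated range. The change was 1.35 ± 0.29 (limma adjusted p = 0.000493), and 0.39 with libraries 5 and 6. Cox6a1 rose by 1.98 ± 0.54 and Cox5b by 1.05 ± 0.31 (limma adjusted p = 0.00577 and 0.00958), with 0.52 and 0.20 against libraries 5 and 6. Cox8a (1.05 ± 0.50) and Ndufa4 (-0.78 ± 0.36) had large but uncalled changes in opposite directions, with limma adjusted p of 0.123 and 0.111.

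In complex V, 6 of 15 genes were called, 3 of the 5 F1 subunits and 3 of the 8 of the membrane part and stalk. The F1 part holds the catalytic sites, on its beta subunit Atp5b. Atp5b had 119, 132 and 226 RPM as its lowest, median and highest levels in sham and 190, 208 and 238 RPM in irradiated libraries, with sham libraries 5 and 6 at 210 and 226 RPM. The irradiated range thus enclosed libraries 5 and 6 and lay above the other 4. Its change of 0.47 ± 0.15 (limma adjusted p = 0.0177) became -0.05 with libraries 5 and 6, and its call was lost without sham library 1 or 4. Atp5d and Atp5e, the delta and epsilon subunits of the rotor stalk, showed the same arrangement. Atp5d went from 1.24 to 4.21 RPM in sham libraries 1 to 4 to 13.3 to 22.0 RPM in irradiated libraries, with libraries 5 and 6 at 19.2 and 20.9 RPM. Its change was 1.77 ± 0.40 (limma adjusted p = 0.000949), and that of Atp5e 1.38 ± 0.35 (limma adjusted p = 0.00298), and both turned to -0.12 and -0.02 against libraries 5 and 6. Atp5a1 (0.30 ± 0.13) and Atp5c1 (-0.27 ± 0.27), the alpha and gamma subunits, were not called. Of the membrane part and stalk, Atp5g3 rose by 0.69 ± 0.22, Atp5j2 by 0.95 ± 0.31 and Atp5k by 1.10 ± 0.39, and Atp5g1 was not called (0.33 ± 0.44). In these 3 called genes sham libraries 5 and 6 lay inside the irradiated range. They held 55.7 and 55.8 RPM of Atp5g3 (irradiated 52.8 to 88.5), 43.2 and 73.1 RPM of Atp5j2 (42.9 to 81.5) and 2.34 and 4.03 RPM of Atp5k (1.99 to 5.94).

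In complex I, 7 of 32 genes were called higher, all accessory subunits. They were Ndufa2, Ndufa6 and Ndufs6 of the NADH-binding module and Ndufa3, Ndufa8, Ndufa11 and Ndufb7 of the membrane arm. None of the 4 genes of the ubiquinone-binding module was called, nor any of the 7 core subunits. Ndufa8 went from 17.6 to 35.4 RPM in sham libraries 1 to 4 and 67.0 and 67.5 RPM in libraries 5 and 6 to 61.5 to 87.8 RPM (median 71.1) in irradiated libraries, a change of 1.10 ± 0.28 (limma adjusted p = 0.00274). As with the F1 subunits, libraries 5 and 6 lay in the irradiated range, and against them the change was 0.09. Ndufa11 rose by 1.85 ± 0.49 and Ndufa2 by 1.36 ± 0.37, with 0.64 and 0.66 against libraries 5 and 6. Ndufa11 lies at the contact of complex I with complex III in supercomplexes. Of the core subunits, Ndufs7 (0.90 ± 0.49), Ndufs3 (0.61 ± 0.28), Ndufs8 (0.20 ± 0.23), Ndufv2 (0.14 ± 0.25) and Ndufv1 (-0.03 ± 0.29) did not pass. Ndufs1, the largest core subunit and the member with the longest exons (8086 bases), had a change of -0.56 ± 0.22 (limma adjusted p = 0.0551). Its levels were 71.8, 99.6 and 113 RPM in sham and 48.3, 66.9 and 72.4 RPM in irradiated libraries, and only the edge values of the groups crossed. Sham libraries 5 and 6 held 103 and 73.1 RPM. The 7 assembly factors had a median change of 0.02, none was called (none at an unadjusted p under 0.05 by limma, and none by limma-voom), and Ndufaf7 stood at -0.25 ± 0.23.

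**Figure D4:**
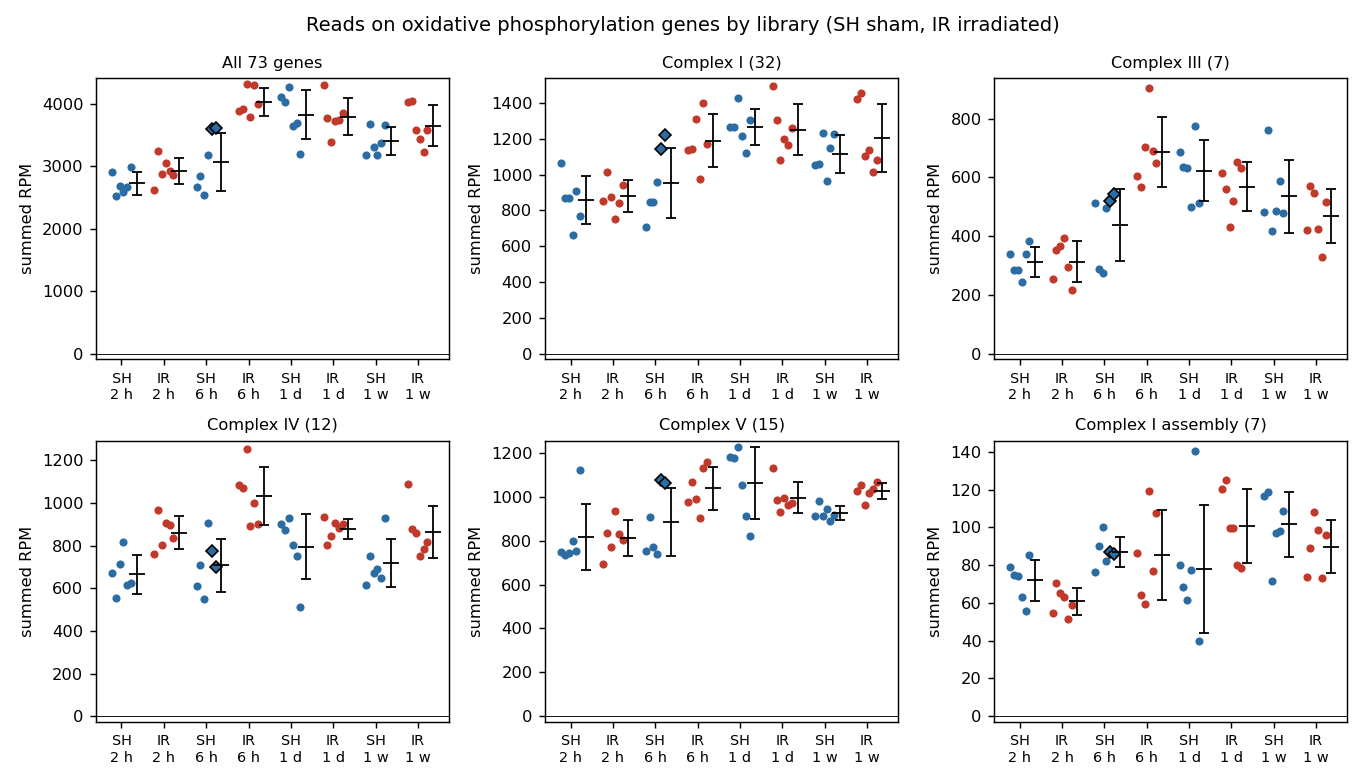
Summed RPM of all 73 genes and of the genes of each complex (vertical axes) in each library, with sham (SH) in blue, irradiated (IR) in red, sham 6 h libraries 5 and 6 as outlined diamonds, and the mean ± SD (n = 6) beside each group. At 6 h the irradiated sums of all 73 genes (3794 to 4318) lie above the sham sums, of which libraries 5 and 6 (3605 and 3613) are the highest.

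Because many of the genes moved together at 6 h, their promoters were read for the cores of binding motifs of factors known to drive respiratory genes. These were the nuclear respiratory factor 1 core (GCGCATGC), the core bound by ETS factors such as GABPA (CCGGAAG) and the YY1 core (AAGATGGC), each on both strands, in the 250 bases before the RefSeq start (GRCm38.p6). No motif contains another, and the first shares most of its letters with its own reverse complement. For 63 of the 73 genes a promoter was matched. The nuclear respiratory factor 1 core stood in 6 (9.5%, beside 5.47% of the 8623 tested genes with a promoter and 2.56% of all 27025 genes with one), the ETS core in 11 (17.5%, beside 17.0% and 7.83%) and the YY1 core in 2 (3.2%, beside 2.61% and 1.83%). At least 1 of them stood in 17 of the 63 (27.0%), beside 23.2% of the tested genes and 11.5% of all genes with a promoter. Of the 17 genes with a promoter that were called at 6 h against the whole sham group, 10 held a motif, and of the 46 uncalled ones, 7 did. None of these calls held against sham libraries 5 and 6 alone. Over all tested genes the shares were 22.6% of those called higher and 23.6% of those not called. The 250 bases can include annotated exons. In the part before any annotated exon, matches remained only in Uqcr11, Atp5e, Ndufa6, Ndufaf1, Ndufaf4 and Ndufb6. The counts above were not restricted to that part. They are a description with no test, and a match is not a shown binding site.

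To show what such windows look like, the part free of annotated exons is printed for 3 called genes with a match, 1 in each of complexes III, V and I, and for Cox7a2l, which had no match and was not called at 6 h. All are on the minus strand of GRCm38.p6, written 5′ to 3′ in the sense of the gene, with the motif in capitals. Uqcr11 lies at chr10:80406831-80407071 with an ETS core whose first base is 66 bases before the start. Atp5e lies at chr2:174464106-174464351 with an ETS core on the opposite strand at 102 bases, and Ndufa6 at chr15:82354323-82354541 with a nuclear respiratory factor 1 core on the opposite strand at 83 bases. Cox7a2l lies at chr17:83514334-83514583.
Uqcr11: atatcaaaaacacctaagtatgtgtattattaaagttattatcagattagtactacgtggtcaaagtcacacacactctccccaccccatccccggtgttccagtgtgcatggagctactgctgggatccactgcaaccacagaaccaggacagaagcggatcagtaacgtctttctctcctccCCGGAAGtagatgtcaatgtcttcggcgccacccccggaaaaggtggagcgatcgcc
Atp5e: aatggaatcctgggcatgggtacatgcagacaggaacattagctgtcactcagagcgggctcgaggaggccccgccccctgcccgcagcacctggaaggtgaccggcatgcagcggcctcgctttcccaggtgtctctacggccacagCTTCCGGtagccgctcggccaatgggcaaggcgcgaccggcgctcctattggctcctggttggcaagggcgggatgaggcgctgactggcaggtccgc
Ndufa6: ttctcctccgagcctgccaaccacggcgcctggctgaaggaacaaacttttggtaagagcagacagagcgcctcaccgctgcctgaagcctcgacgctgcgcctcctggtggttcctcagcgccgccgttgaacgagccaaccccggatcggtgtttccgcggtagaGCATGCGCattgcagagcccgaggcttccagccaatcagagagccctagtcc
Cox7a2l: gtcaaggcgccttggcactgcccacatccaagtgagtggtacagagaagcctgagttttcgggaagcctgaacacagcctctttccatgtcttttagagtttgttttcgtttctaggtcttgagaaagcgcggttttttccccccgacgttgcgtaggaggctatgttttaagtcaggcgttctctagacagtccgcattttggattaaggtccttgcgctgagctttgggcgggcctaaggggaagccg

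At 1 day, 2 of the 73 genes were lower and 1 was higher in irradiated microglia, and of the 21 genes called at 6 h, Cox5b alone was called again. Among those called lower was Cox7a2l, which encodes a factor that joins complex III and complex IV into supercomplexes and of which C57BL/6 mice are known to carry a shortened form. Called higher was Cox5b. These shares, 2.74% lower and 1.37% higher, stand beside 2.12% and 3.42% of all genes tested. The median change of the 73 was 0.12, beside 0.02 for all genes. Summed levels of the 73 genes overlapped fully, at 3193 to 4278 RPM in sham and 3392 to 4301 RPM in irradiated libraries.

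Cox7a2l (ENSMUSG00000024248, chromosome 17, 83501919 to 83514333) had 68.4, 103 and 132 RPM as its lowest, median and highest levels in sham and 28.9, 58.2 and 73.8 RPM in irradiated libraries at 1 day. Only the lowest sham library, which is the shallowest of the series, and the highest irradiated one crossed. The change was -0.92 ± 0.19 (limma adjusted p = 0.00103), from 101 ± 23.0 to 54.0 ± 16.5 RPM (SD, n = 6). It stayed between -1.02 and -0.78 in all 15 alternatives based on the recovered reads and between -1.02 and -0.76 when any 1 library was left out, and was called in each. Microglial markers were also lower in irradiated libraries at 1 day, with 6 of 11 called lower and a median change of -0.55, and their part in the fall was not tested.

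**Figure D5:**
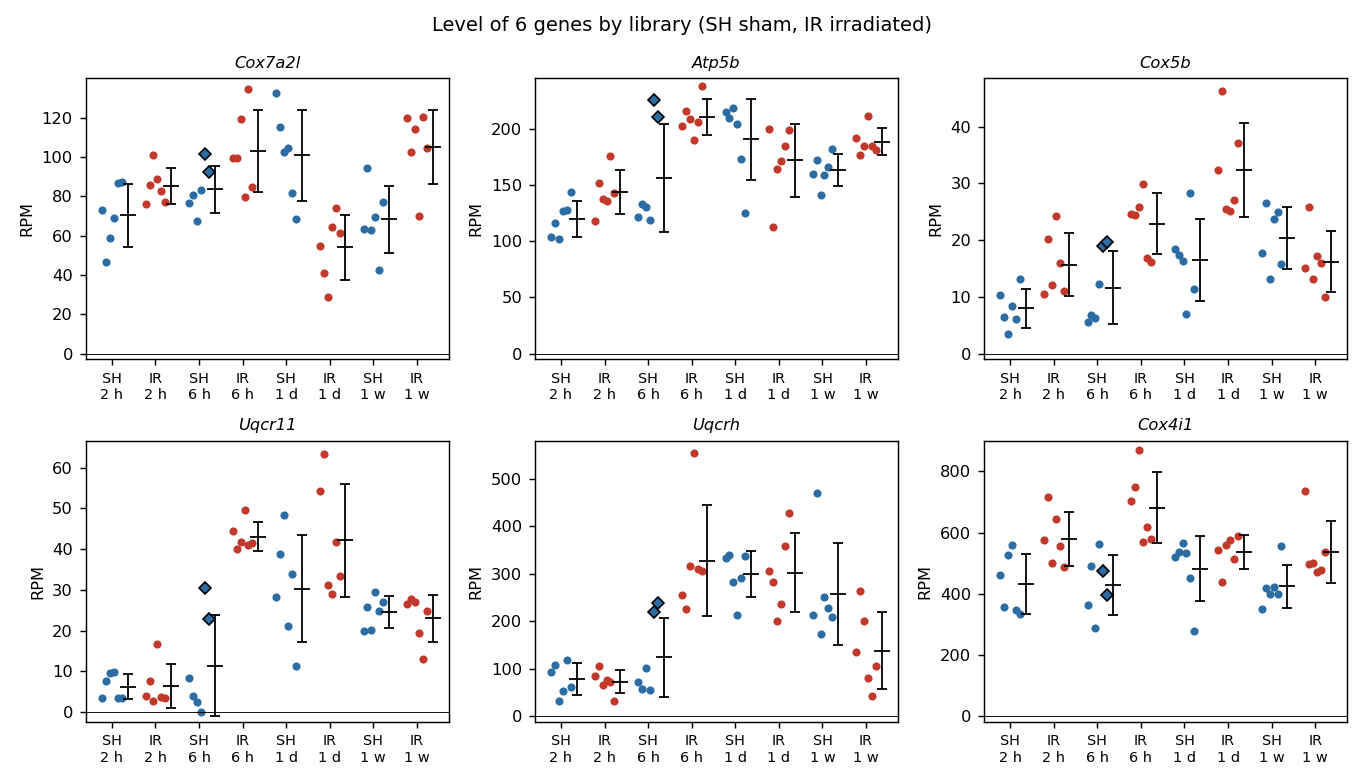
Levels in RPM (vertical axes) of 6 genes in each of the 48 libraries, sham (SH) in blue, irradiated (IR) in red and sham 6 h libraries 5 and 6 as outlined diamonds, with the mean ± SD (n = 6) beside each group. Cox7a2l is low in irradiated libraries at 1 day, while Uqcr11 and Uqcrh differ between sham libraries 5 and 6 and the other 4 sham libraries at 6 h.

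Cox5b had 6.90, 16.8 and 28.4 RPM in sham and 25.2, 29.7 and 46.4 RPM in irradiated libraries at 1 day. A single sham library reached into the irradiated range. The change was 1.01 ± 0.31 (limma adjusted p = 0.0381), lost when any 1 of 6 libraries was left out (sham 3, 4 or 6, or irradiated 1, 2 or 6). Cox5b was thus called at 2 h, 6 h and 1 day, each time against other sham animals, with changes of 0.92, 1.05 and 1.01, and it was the only one of the 73 genes called at 3 times. The change at 6 h was 0.20 against sham libraries 5 and 6 (limma adjusted p = 0.976) and 0.75 with the GC and length trend removed (limma adjusted p = 0.0758), not called in either. At 1 week its change was -0.32 ± 0.31 (limma adjusted p = 0.626).

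The other 70 of the 73 genes were not called at 1 day. Groups that did not overlap were found in the higher direction for 2 of the 73, Ndufb2 and Ndufb8 of the membrane arm, beside 2.41% of all genes, and in the lower direction for none (0.81% of all genes). Their changes were 1.24 ± 0.43 and 0.91 ± 0.37 (limma adjusted p = 0.0876 and 0.153). Among the assembly factors, 6 of 7 changes were above 0 with a median of 0.64, and Ndufaf7 had 0.66 ± 0.23 (limma adjusted p = 0.0797). Limma had 3 of the 7 higher at an unadjusted p under 0.05, and limma-voom called none. Sham library 6, the shallowest, held 39.9 RPM in sum over the 7, beside 61.7 to 141 RPM in the other sham libraries. At its depth 3 reads are 17.1 RPM, and the lowest sham level of Ndufaf1, Ndufaf2 and Ndufaf6 was 0 RPM. No gene of complex III or V was called, and Uqcrh and Atp5a1, those with most reads in each, changed by -0.01 ± 0.35 and -0.11 ± 0.13. Among core subunits of complex I, the change was -0.28 for Ndufs8 and 0.23 for Ndufs3.

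At 1 week, 1 of the 73 genes was called higher and none lower, beside 2.15% and 1.8% of all genes (6 higher and 3 lower at an unadjusted p under 0.05; limma-voom called 2 higher and 1 lower). The gene was again Cox7a2l, now in the opposite direction. Its levels were 42.5, 66.4 and 94.1 RPM in sham and 69.8, 109 and 120 RPM in irradiated libraries. Apart from irradiated library 4 (69.8 RPM), which also held 365 RPM of neuronal markers, the irradiated values lay above all sham values. The change was 0.63 ± 0.19 (limma adjusted p = 0.0493), at the edge of the threshold, and it lost its call in 30 of 48 fits that left out 1 library and in 7 of 15 alternatives. Uqcrh had the largest fall, -1.05 ± 0.35, which was not called (limma adjusted p = 0.0773). Groups that did not overlap in the higher direction were found for Ndufb6, Ndufv3 and Atp5g3, 3 of the 73, beside 2.14% of all genes (lower, none beside 1.19%), and their changes were not called (0.84 ± 0.44, 0.78 ± 0.31 and 0.49 ± 0.22). Complex III core protein Uqcrc1 (0.97 ± 0.40) and the N-module subunit Ndufa7 (1.15 ± 0.72) did not pass either. The genes with most reads in complexes I and V, Ndufa9 (-0.14 ± 0.22) and Atp5a1 (0.09 ± 0.13), were not called, and among the assembly factors Ndufaf7 had 0.08 ± 0.23.

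The change of the irradiation effect between adjacent times was tested directly. From 2 h to 6 h the effect grew in 6 of the 73 genes and shrank in none (6.36% and 4.05% of all genes), with 2 lower at an unadjusted p under 0.05 and none by limma-voom. The 5 with the smallest adjusted p were Uqcr11 (2.73, limma adjusted p = 0.00406), Ndufa8 (1.36, 0.0190), Uqcrh (1.64, 0.0267), Ndufb7 (2.07, 0.0338) and Cox6a1 (2.41, 0.0349). The count was 2 without sham 6 h library 1 or 4, 3 without sham 6 h library 2, sham 2 h library 2 or irradiated 2 h library 2, and 10 without sham 6 h library 5 or 6. With sham libraries 5 and 6 alone at 6 h none of the 73 was called in this comparison (none higher and 1 lower at an unadjusted p under 0.05). From 6 h to 1 day the effect dropped in 5 genes and grew in none (2.77% and 2.11% of all genes), with 2 higher at an unadjusted p under 0.05 and none by limma-voom. Among them were Cox7a2l (-1.20, limma adjusted p = 0.00692), Uqcr11 (-2.10, 0.0439), Ndufa11 (-2.27, 0.0468) and Uqcrh (-1.61, 0.0472), and none of the 73 was called with sham libraries 5 and 6 alone (1 lower and 1 higher at an unadjusted p under 0.05). This count was 1 to 3 without any 1 of 20 libraries and rose to 10 and 11 without sham 6 h library 5 or 6.

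From 1 day to 1 week the effect grew in 2 genes, among them Cox7a2l, and shrank in none (2.74% and 2.96% of all genes), with 6 lower at an unadjusted p under 0.05 and 2 called lower by limma-voom. For Cox7a2l the difference was 1.55 ± 0.27 (limma adjusted p = 0.000245). It stayed between 1.34 and 1.67 over the 14 alternatives based on recovered reads and between 1.39 and 1.66 when any 1 library was left out, with adjusted p up to 0.00292 and 0.000974. The count was 1 without irradiated 1 day library 2. The 6 h sham libraries enter this difference only through the shared estimate of the spread. Microglial markers moved alike between these times, with 6 of 11 called higher in the same contrast and a median of 0.90, and their part was not tested.

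Levels also differed among the sham groups, the background for the changes after irradiation. By limma's F test over the 4 sham groups, 33 of the 73 genes differed, beside 22.7% of all genes. They were 14 of 32 in complex I, 4 of 7 in complex III, 4 of 12 in complex IV and 11 of 15 in complex V, with none of the 7 assembly factors. Uqcr11 had sham medians of 5.58, 6.17, 31.1 and 25.3 RPM at 2 h, 6 h, 1 day and 1 week, and Uqcrh of 77.0, 86.5, 312 and 220 RPM. Atp5d likewise ran 2.00, 2.97, 18.4 and 17.7 RPM. In each, the sham medians at 1 day and 1 week lay above those at 2 h and 6 h, and the irradiated medians at 6 h were 41.7, 307 and 19.0 RPM. The 6 h sham medians hide the split of that group. Libraries 5 and 6 held 23.0 and 30.4 RPM of Uqcr11, 219 and 238 of Uqcrh and 19.2 and 20.9 of Atp5d. Libraries 1 to 4 held at most 8.32, 101 and 4.21 RPM. On the first principal component libraries 5 and 6 (14.7 and 17.5) lay among the sham 1 day libraries (13.65 to 38.93). The part of this split in the differences between sham groups was not tested. Cox7a2l was not among the 33 (limma adjusted p = 0.074).

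The rest of the pathway was read in the same fit. Succinate dehydrogenase (complex II), cytochrome c1, a subunit of complex III whose symbol the name rule does not take in, and cytochrome c, the carrier between complexes III and IV, had 5 of 6 listed genes tested and no call by limma at any time. At 1 week all 5 changes were above 0, with a median of 0.51, 3 of them at an unadjusted p under 0.05, and limma-voom called 2 higher, the highest change being Sdhb at 0.58 ± 0.23 (limma adjusted p = 0.15). Of the 13 mitochondrially encoded subunits, 7 could be tested. The complex I subunits mt-Nd4 (1.04 ± 0.23) and mt-Nd6 (1.09 ± 0.31) rose at 6 h and the complex IV subunit mt-Co1 fell (-0.37 ± 0.13), mt-Nd2 rose at 2 h (0.70 ± 0.21) and mt-Nd1 at 1 day (0.76 ± 0.21). Of the 7, 2 were thus called higher and 1 lower at 6 h, beside 13.6% and 9.52% of all genes. The 1 higher at 2 h and the 1 at 1 day stand beside 5.27% and 3.42%. Against sham libraries 5 and 6 the 3 changes at 6 h were 0.06, 0.20 and -0.20, none called.

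Of 39 tested assembly factors outside the name rule, 1 rose at 2 h (5.27% of all genes), and 3 rose and 2 fell at 6 h (13.6% and 9.52% of all genes). None of the 39 was called at 6 h against sham libraries 5 and 6. Sdhaf1, which helps insert iron-sulphur clusters into complex II, rose at both times, by 2.09 ± 0.62 and 1.98 ± 0.62 (limma adjusted p = 0.0197 and 0.0157). Lrpprc, which stabilises mitochondrial messenger RNAs, fell by 1.11 on the log2 scale at 6 h (limma adjusted p = 0.00661), and Tmem70, an assembly factor of ATP synthase, by 0.60, which turned to 0.066 against libraries 5 and 6. Of 13 tested regulators of respiratory genes, Gabpb1, the beta partner of the ETS factor GABPA, rose at 2 h from 38.9 to 85.2 RPM in the mean (1.12 ± 0.20, limma adjusted p = 5.2e-05), and Polg, the polymerase of mitochondrial DNA, fell (-0.72 ± 0.24). At 6 h the coactivator Pprc1 (0.99 ± 0.22) and the nuclear receptor Esrra (0.98 ± 0.27) rose, while Gabpa (-0.83 ± 0.29) and Yy1 (-0.66 ± 0.22) fell, none of the 4 being called against sham libraries 5 and 6. Of the 13 regulators, 2 were thus higher and 2 lower at 6 h, beside 13.6% and 9.52% of all genes. The 1 higher and 1 lower at 2 h stand beside 5.27% and 5.22%.

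In the neighbouring pathways, Idh3g, a regulatory subunit of mitochondrial isocitrate dehydrogenase, was lower at 2 h, 6 h and 1 day (-0.69 ± 0.22, -0.71 ± 0.22 and -1.02 ± 0.22), 1 of 17 tested genes of the citric acid cycle. Ogdh fell at 2 h (-0.56 ± 0.15), and Mdh2 rose at 6 h (0.53 ± 0.16), with -0.016 against sham libraries 5 and 6, where none of the 17 was called. In all, 2 of the 17 fell at 2 h, 1 rose and 1 fell at 6 h and 1 fell at 1 day. The shares of all genes were 5.22%, 13.6%, 9.52% and 2.12%. Of 18 tested glycolysis genes, 1 rose and 2 fell at 2 h, beside 5.27% and 5.22% of all genes. At 6 h 5 rose and 1 fell, beside 13.6% and 9.52%, and 1 rose at 1 week, beside 2.15%. None of the 18 was called at 6 h against sham libraries 5 and 6. The glucose transporter Slc2a1 rose at 2 h (0.96 ± 0.32) and at 6 h (1.5 ± 0.32, and 1.09 against sham libraries 5 and 6 with limma adjusted p = 0.302). Hk1, the hexokinase bound to mitochondria, fell at 2 h from 23.8 to 4.57 RPM (-2.18 ± 0.46, limma adjusted p = 0.000492), and Hk2 fell by 0.56. Aldoa (1.09 ± 0.24) and Ldha (0.84 ± 0.19) rose at 6 h, with 0.28 and 0.16 against libraries 5 and 6. The lactate exporter Slc16a3 rose at 1 week (0.98 ± 0.30, limma adjusted p = 0.0485). Ribosomal protein genes were listed for comparison at 6 h, where 13.6% of all genes were called higher. Of 79 cytosolic ribosomal protein genes, 31 were called higher and 1 lower with a median of 0.64, and of 73 mitochondrial ribosomal protein genes 8 were called higher, a share below that of all genes, with a median of 0.35, beside the 0.47 of the oxidative phosphorylation genes. Against sham libraries 5 and 6 the calls higher were 2 (median 0.22) and 0 (median 0.0089), and with the GC and length trend removed 12 and 2.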

How the data were processed

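Bulk RNA sequencing of sorted hippocampal microglia gave 48 libraries, 6 animals in each of 8 groups. The table deposited by the authors holds RPKM values per gene and library. The submitters' processing notes name featureCounts 1.5.1, STAR 2.6.1d, FastQC 0.11.8 and bcl2fastq 2.20.0, and the builds mm10 and GRCm38. The annotation release and strand setting are not given in the sources used here. In the values, the deposited RPKM is a whole read number over the gene span (introns included) and over a library total, usually that of another library (2.05% of values were divided by their own total). Undoing this gave whole reads for 100% of 719081 values above 0 (tolerance 0.001 reads), and in 48 of 48 libraries the reads summed to 1 of the totals. More than 1 solution existed for 95 genes, which had 16 reads or fewer. From the 5th to the 95th percentile, deposited values were 0.436 to 3.11 times those recomputed with the library's own total. The recovery was tested on simulated data and returned 100% of values.

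Reads were scaled to RPM and fitted as log2(RPM + 1) with limma 3.58.1 in R 4.3.3 (8 group means, eBayes with trend and robust, 40 residual degrees of freedom) over 11479 genes with at least 10 reads in at least 6 libraries. Python 3.11.15 with pandas 2.3.3 and numpy 2.4.6 did the rest. Tests are two-sided with Benjamini-Hochberg adjustment over all 11479 genes and a threshold of 0.05. Tested on simulated libraries of this depth, the fit called 33% to 37% of 2-fold changes and 72% to 79% of 4-fold changes, with 3.4% to 11% of calls falling on genes left unchanged. The simulation drew every gene independently and held no split of libraries and no GC or length trend. These shares therefore do not carry over to the 6 h comparison, where the sham libraries split. The labels mention no molecular identifiers. GC content and length came from GENCODE vM21 exons and were removed per library with natural splines of 5 degrees of freedom. In the same annotation 27 of the 73 genes share exon bases with another gene, among them 9 of the 24 called at any time. Replicate numbers were not treated as pairs in the main fit: 2 of 24 pairs had correlated deviations above 0.1, both at 2 h (0.166 and 0.112).

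The genes and lists were chosen with earlier results of these data known. Values of 1 of the 73 genes are not reported here, although it enters the counts. Named are up to 10 called genes per direction and time by adjusted p, in each complex without a call the gene with most reads, the nuclear core subunits of complexes I and III and the F1 subunits, all isoform families, up to 5 genes per difference between times, and up to 3 of each other list. Ndufb6, Ndufb2, Ndufb8, Ndufv3, Ndufa7 and the uncalled gene nearest to the threshold were named after their values were seen. Alternatives were another pseudocount, the RPKM scale, size factors, other filters, limma-voom, a replicate block, GC and length correction, other sham libraries, the deposited values as they are, and each library left out in turn.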

Additional observations from a re-analysis of the deposited data

Results flagged for a closer look

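In 136 groups of 6 libraries, 1 library lay far from the other 5 in 13, by a gap above Dixon's critical value of 0.625 of the range. Chance alone flags about 1 group in 20 where values are normally distributed, and the shape of the RPM values was not tested. In sham 2 h these were the summed complex V genes in library 6 (1123 RPM), Ndufa13 in library 3 (46.4 RPM), Atp5d in library 2 (7.58 RPM) and Cox6a1 in library 4 (41.0 RPM). At 2 h after irradiation it was Uqcr11 in library 4 (16.7 RPM). At 6 h after irradiation, library 4 stood high for Uqcrh (553 RPM) and Cox6a1 (60.7 RPM). Atp5d reached 45.6 RPM in sham 1 day library 6, the shallowest, and the summed complex V genes 1131 RPM in irradiated 1 day library 1. At 1 week, Uqcrh stood at 469 RPM in sham library 2, Cox4i1 at 555 RPM in sham library 6 and 737 RPM in irradiated library 1, and Cox7a2l at 69.8 RPM in irradiated library 4, the only low one of the 13.

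The effect of irradiation differed between adjacent times for the following genes by limma's contrast of contrasts. Between 2 h and 6 h it grew for Uqcr11 by 2.73, Cox6a1 by 2.41, Ndufb7 by 2.07, Uqcrh by 1.64, Ndufa8 by 1.36 and Ndufa6 by 1.13 on the log2 scale. Between 6 h and 1 day the differences were -2.27 for Ndufa11, -2.10 for Uqcr11, -1.61 for Uqcrh and -1.20 for Cox7a2l. Between 1 day and 1 week it was 1.55 for Cox7a2l. The differences that involve 6 h were not called with sham libraries 5 and 6 alone, and that between 1 day and 1 week does not use the 6 h animals as a control.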

How the results depend on the processing

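The values at 6 h depend on the sham libraries and on the correction for GC content and length, and the cause was not tested. For 6 h, the 21 calls higher became 6 with the GC and length trend removed, 8 with that trend removed and a replicate block, 0 with sham libraries 5 and 6 alone and 0 with the deposited values, and 15 to 25 with 1 library left out. The 0 calls lower became 1 on the log2(RPKM + 1) scale, with size factors, without mitochondrial genes in the total, with limma-voom, with the 12 libraries of the time alone and with the block, 2 with sham libraries 1 to 4 alone, and 0 to 1 with 1 library left out. With sham libraries 5 and 6 alone the change reversed for Atp5d (-0.12), Atp5e (-0.018), Uqcrc2 (-0.063), Atp5b (-0.054), Tmem70 (0.066), Yy1 (0.10), Mdh2 (-0.016), Mrpl2 (-0.0041) and Mrps23 (-0.13), and with the GC and length trend removed, with or without the block, for Cox4i1 (-0.10).

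At 2 h the 3 calls higher became 5 on the log2(RPKM + 1) scale, with size factors and without mitochondrial genes in the total, 1 without a filter, 0 with deposited values and 1 to 5 with 1 library left out. At 1 day the 1 call higher became 3 on the log2(RPKM + 1) scale and 0 without a filter, with the 12 libraries alone, with the block (also with the trend removed), without the 3 shallow libraries and with deposited values, and 0 to 2 with 1 library left out. The 2 calls lower became 1 with the 12 libraries alone, 0 with deposited values and 1 to 2 with 1 library left out. At 1 week the 1 call higher became 0 with a pseudocount of 0.1, size factors, no filter, the block, the trend removed (with or without the block) and deposited values, 2 with limma-voom and 0 to 1 with 1 library left out. The 0 calls lower became 1 with limma-voom, the block (also with the trend removed), and sham 6 h libraries 5 and 6 or 1 to 4, and 0 to 1 with 1 library left out.

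For 6 h against 2 h the 6 increases became 3 without a filter and with limma-voom, 2 with the trend removed (with or without the block), 0 with sham libraries 5 and 6, 21 with libraries 1 to 4, 0 with deposited values and 2 to 10 with 1 library left out, and the 0 decreases became 1 with the trend removed (with or without the block) and 0 to 1 with 1 library left out. For 1 day against 6 h the 5 decreases became 2 with a pseudocount of 0.1 and without a filter, 10 with limma-voom, 0 with the trend removed, 1 with the block besides, 0 with sham libraries 5 and 6, 20 with libraries 1 to 4, 0 with deposited values and 1 to 11 with 1 library left out, and the 0 increases became 1 on the log2(RPKM + 1) scale and with sham libraries 1 to 4. For 1 week against 1 day the 2 increases became 0 with deposited values and 1 to 3 with 1 library left out, and the 0 decreases became 3 with a pseudocount of 5, 2 on the log2(RPKM + 1) scale, with size factors, with limma-voom and with sham libraries 5 and 6, 1 with the trend removed and with sham libraries 1 to 4, and 0 to 2 with 1 library left out.

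The block on replicate numbers is an alternative only, since same-numbered animals deviated together little (correlations -0.168 to 0.166, and 8 of 24 sham libraries correlated best with their own number). At 2 h these correlations ran from 0.0011 to 0.166, and a weak pairing at that time is not excluded. The filter of 10 reads in 24 libraries drops some of the genes, and the 12 libraries of a time alone give no difference between times. Depth limits the genes near 1 RPM, such as Atp5k, and isoforms under the read minimum.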
